A study of Caenorhabditis elegans with 18 samples.

Results

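The 10 genes described here encode alpha- and beta-tubulins of Caenorhabditis elegans, and they were taken by symbol from a count table of 20395 genes. The alpha-tubulin genes are tba-1, tba-2, tba-4, tba-7 and mec-12, and the beta-tubulin genes are tbb-1, tbb-2, tbb-4, tbb-6 and mec-7. All 10 were present in the table and passed the filter on low counts, as did 17484 genes in all. Their identifiers in the table are WBGene00006528 (tba-1), WBGene00006529 (tba-2), WBGene00006530 (tba-4), WBGene00006533 (tba-7), WBGene00003175 (mec-12), WBGene00006536 (tbb-1), WBGene00006537 (tbb-2), WBGene00006538 (tbb-4), WBGene00006539 (tbb-6) and WBGene00003171 (mec-7). The annotation used for symbols places tba-1 and tba-2 on chromosome I, tba-4 on II, tba-7, tbb-1, tbb-2 and mec-12 on III, tbb-6 on V, and tbb-4 and mec-7 on X. The other 6 tubulin genes of the table, ben-1, tba-5, tba-6, tba-8, tba-9 and the gamma-tubulin gene tbg-1, are given only for comparison.

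Microtubules are hollow polymers of alpha- and beta-tubulin dimers, and they form spindles, axonal tracks and the axonemes of cilia. Benzimidazole anthelmintics bind beta-tubulin and hinder its polymerization, and in C. elegans the beta-tubulin ben-1 is the isotype through which wild-type worms are sensitive to them. The worm expresses several isotypes in overlapping sets of cells. Some are abundant and broadly used, including in the germ line and embryo, whereas others serve particular neurons. In mammalian cells the amount of free tubulin dimer is known to regulate the stability of tubulin transcripts.

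Total RNA of whole worms was sequenced in 18 libraries, 3 for each of 6 groups. Every group, controls included, was strain CB3474 carrying the ben-1(e1880) allele, so no wild-type ben-1 worms entered any comparison. Cultures begun with about 20000 first-stage larvae per replicate were grown in liquid with bacteria at 20 °C for about 70 h and then exposed for 4 h. The control group received DMSO, the solvent, which was kept under 1%. The other 5 groups received a drug at 1.13 mM. ABZ is albendazole, FBZ is fenbendazole, OxBZ is oxfendazole, MBZ is mebendazole and TBZ is thiabendazole. All but TBZ are benzimidazole carbamates. ABZ carries a propylthio group, FBZ a phenylthio group and MBZ a benzoyl group on the ring, OxBZ is the sulfoxide of FBZ, and TBZ carries a thiazole ring and no carbamate. The comparisons ask which tubulin transcripts each drug altered in these mutants, and whether one drug differed from another at matched dose and time.

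Library totals ran from 57010263 to 67277284 counts. The source label speaks of mixed larval stages and the growth protocol of adults, and transcripts of an adult cuticle collagen, col-19 (230.1 to 1800 CPM), and of the oocyte yolk receptor gene rme-2 (519 to 971 CPM) were present in every library. The transcript of the mutated gene, ben-1, was measured at 57.7 ± 7.81 CPM (SD, n = 3) in DMSO, and counts do not show the state of the allele. Levels in CPM are read counts brought to a common library total by edgeR with TMM factors. DMSO replicate 2 and ABZ replicate 2 stood apart from their groups. Summed transcripts of 55 sperm genes were 5024 and 4481 CPM in these libraries, against 513 to 1208 CPM in the other DMSO and ABZ libraries. On the first principal component of all genes they lay at -136 and -122, against -46.5 to 5.07 for the others of both groups. Calls of tubulin genes against DMSO that changed when DMSO replicate 2 and ABZ replicate 2 were left out are given with and without them. Between drugs only the total number of calls is given without them. The labels do not say whether replicates were separate cultures for every drug, and a p-value here reflects nothing beyond the spread among the libraries. In whole-worm RNA, fewer cells of a type and less RNA per cell cannot be told apart.

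In DMSO the tubulin transcripts fell into 4 abundant genes and 6 minor ones. Per kilobase of annotated exon, tbb-2 was highest at 891 ± 29.3 CPM per kb (SD, n = 3), followed by tba-2 at 659 ± 50.3, tba-1 at 451 ± 26.0 and tbb-1 at 431 ± 14.3 CPM per kb. The libraries of tba-1 and tbb-1 overlapped, and the other neighbours among these 4 did not. All 4 are broadly expressed isotypes with known roles in the spindles of the early embryo. Next came tba-4, an alpha-tubulin, which stood at 36.7 ± 15.2 CPM per kb, below all libraries of tbb-1. The touch receptor neuron tubulins mec-12 and mec-7 followed at 18.3 ± 1.63 and 11.9 ± 0.54 CPM per kb. The alpha-tubulin tba-7 was at 11.1 ± 4.20, tbb-4, a beta-tubulin of ciliated sensory neurons, at 5.11 ± 3.73, and tbb-6, a divergent beta-tubulin, at 2.40 ± 1.36 CPM per kb. From mec-7 downwards each gene overlapped its neighbour in the order.

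The abundant genes were also the steadiest between replicates. The median over the 6 groups of the coefficient of variation was 3.85% for tbb-2, 4.43% for tba-2, 4.64% for tbb-1 and 5.03% for tba-1. It was 8.94% for mec-12, 11.1% for mec-7, 20.1% for tba-4, 28.6% for tba-7, 31.3% for tbb-6 and 38.9% for tbb-4. A given fold change was therefore measured far more closely in the first 4 genes than in the last 4.

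**Figure D1:**
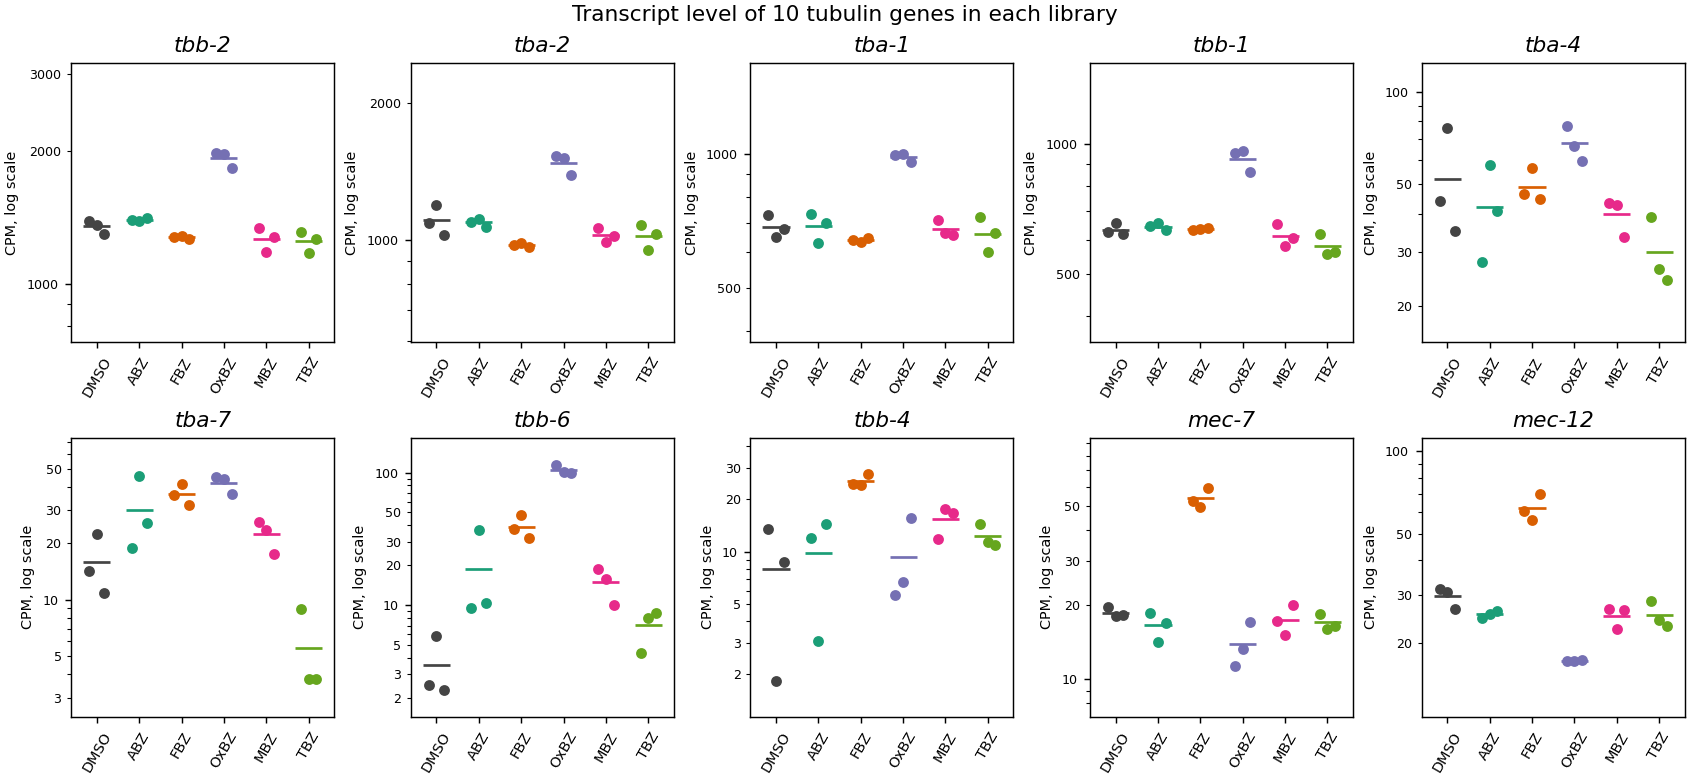
Levels of the 10 tubulin genes in CPM on log axes, each panel with its own range. Points are the 18 libraries and bars are the means of 3 libraries. The 4 abundant genes are high in all 3 OxBZ libraries, tbb-6 rises from 2.29 to 5.88 CPM in DMSO to 99.2 to 115 CPM under OxBZ, and mec-7 and mec-12 are high in FBZ.

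The drugs differed in how many of the 10 genes changed against DMSO. A gene was called where edgeR's quasi-likelihood test, adjusted by Benjamini-Hochberg over all 17484 genes, gave p under 0.05. Under ABZ 1 of 10 rose, where 2.2% of all genes were called, 1.6% higher and 0.606% lower. Under FBZ 5 rose and 1 fell, where 51.8% of all genes were called, 24.3% higher and 27.4% lower. Under OxBZ 6 rose and 2 fell, where 42.7% were called, 21.2% higher and 21.5% lower. Under TBZ 1 fell, where 6.23% were called, 3.06% higher and 3.17% lower. Under MBZ edgeR called 0 of 10, where 1.48% of all genes were called, 1.25% higher and 0.235% lower, although 2 had an unadjusted p under 0.05 and DESeq2 called 1, tbb-6. The median log2 fold change of the 10 genes was 0.54 under FBZ and 0.47 under OxBZ, and between -0.12 and 0.013 under the other drugs, beside medians over all genes between -0.012 and 0.011. A test for any difference among the 6 groups called 9 of 10, where 69.5% of all genes were called. The exception was tbb-4 (adjusted p = 0.127, edgeR), and with DMSO replicate 2 and ABZ replicate 2 left out all 10 were called. The share of tubulin genes called under FBZ was thus close to the share over all genes, and that under OxBZ was 8 of 10 against 42.7%.

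**Figure D2:**
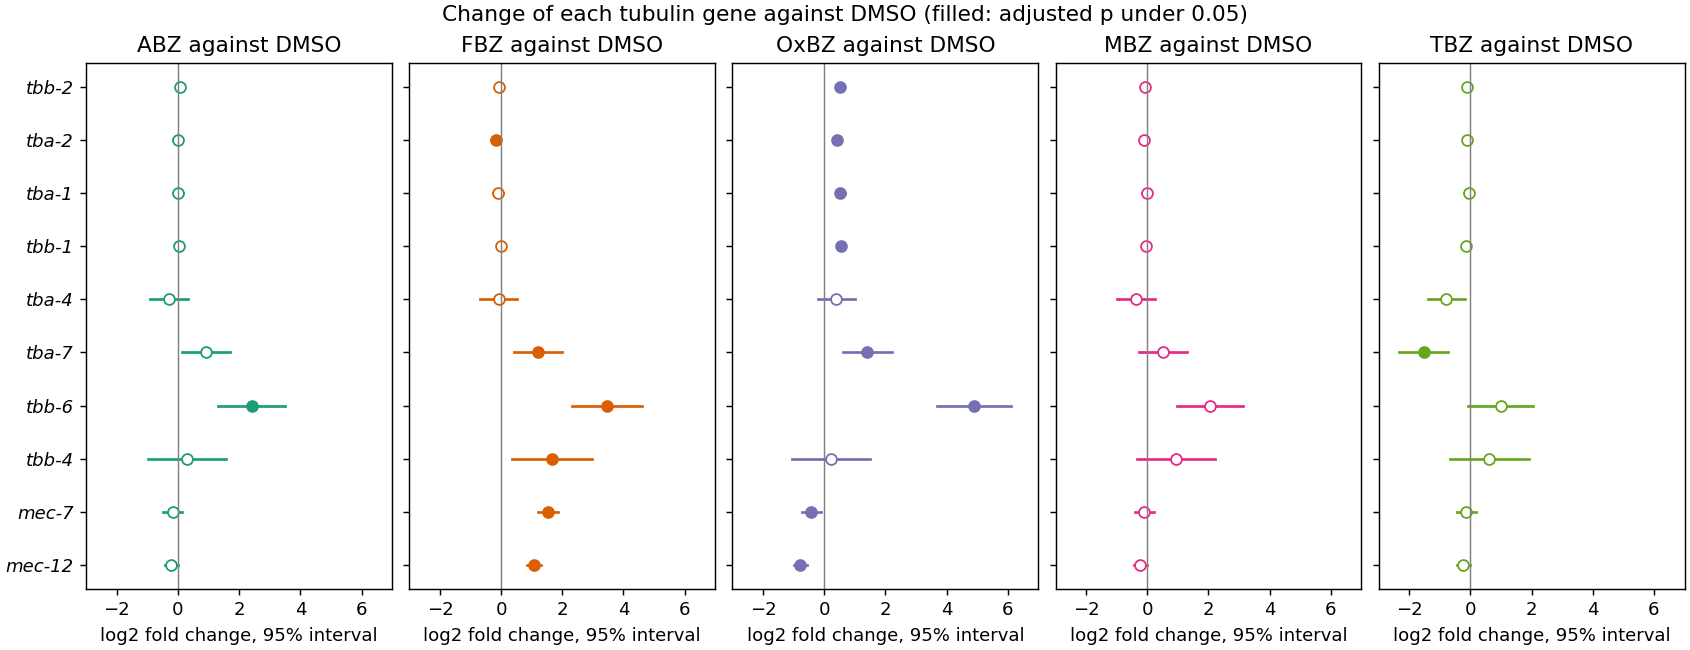
Log2 fold change of each tubulin gene against DMSO, 1 panel per drug, with 95% intervals from an approximate standard error. Filled points had an adjusted p under 0.05. The largest change is that of tbb-6 under OxBZ (4.88), tba-7 lies on opposite sides of 0 under OxBZ (1.41) and TBZ (-1.53), and mec-7 and mec-12 lie on opposite sides under FBZ and OxBZ.

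The 4 abundant isotypes rose together under OxBZ by about the same proportion. In DMSO replicates 1 to 3, tbb-2 measured 1386, 1362 and 1299.9 CPM, and in OxBZ 1982, 1972 and 1830.2 CPM. For tbb-1 the values were 625, 658 and 619 CPM in DMSO and 954, 961 and 861 CPM in OxBZ. No library of one group reached into the other for either gene. The alpha-tubulin tba-2 measured 1092, 1194 and 1027 CPM in DMSO and 1533, 1517 and 1390.0 CPM in OxBZ, and tba-1 measured 727, 649.5 and 677 CPM in DMSO and 993, 998 and 956 CPM in OxBZ. These groups were separate as well. The log2 fold changes under OxBZ were 0.52 ± 0.058 (approximate SE) for tbb-2, 0.55 ± 0.060 for tbb-1, 0.42 ± 0.064 for tba-2 and 0.52 ± 0.071 for tba-1, with edgeR adjusted p from 1.37e-05 to 0.000184. In fold terms they lay between 1.34 and 1.46. The all-gene median moved to -0.12 when DMSO replicate 2 and ABZ replicate 2 were left out, and the 4 changes were then 0.46, 0.51, 0.42 and 0.42, all still called. The tba-2 call was lost in 1 of 25 alternative fits, that of only OxBZ and DMSO libraries with the replicate block (0.40, adjusted p = 0.0636), and the other 3 genes were called in all 25.

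Under the other drugs these 4 genes moved little. Under FBZ, tba-2 measured 976, 987 and 964 CPM, all below DMSO, and fell by 0.18 on the log2 scale (edgeR adjusted p = 0.0305). The drop was 0.10 without DMSO replicate 2 (log2 fold change -0.10, adjusted p = 0.203), and the call was also lost without any 1 of the FBZ libraries (-0.19 to -0.17, adjusted p = 0.0585 to 0.0835) and with RLE scaling (adjusted p = 0.0578). It was lost as well without both libraries numbered 2 (-0.10, 0.172) and with only FBZ and DMSO libraries, without and with the replicate block (-0.16, 0.122 and -0.16, 0.173). The other 3 under FBZ, and all 4 under ABZ, MBZ and TBZ, did not pass, with log2 fold changes between -0.13 and 0.052. Their 95% intervals reached no further than -0.26 and 0.18, so changes of the size seen under OxBZ lay outside them.

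Tubulin folding genes stood beside these isotypes. The list holds the TRiC chaperonin subunits, prefoldin subunits, tubulin cofactors and their relatives, which assemble tubulin dimers. Under OxBZ 20 of the 20 tested genes rose, where 21.2% of all genes rose, with a median log2 fold change of 0.39. Their summed level ran from 3188 to 3337 CPM in the DMSO libraries and from 4136 to 4789 CPM in the OxBZ libraries. The chaperonin gene cct-1 went from 320 to 493 CPM (0.62 ± 0.067, edgeR adjusted p = 1.1e-05), cct-4 from 308 to 468 CPM (0.61 ± 0.067) and coel-1, a cofactor E-like tubulin regulator, from 20.4 to 32.7 CPM (0.68 ± 0.17, adjusted p = 0.00629). The cofactor gene tbcc-1 showed one of the smallest changes, 0.21 ± 0.080. One further listed gene, pfd-1, had no read in any library. Without DMSO replicate 2 and ABZ replicate 2 the count was 15 of 20 with a median of 0.31, and over the other fits it ran from 14 to 20. Under FBZ 1 folding gene rose, coel-1 (1.19 ± 0.17), and 3 fell, namely tbcd-1 (-0.35), tbce-1 (-0.26) and pfd-4 (-0.17). Under ABZ, MBZ and TBZ edgeR called 0 folding genes, with 1, 4 and 2 at an unadjusted p under 0.05. DESeq2 called 1 under ABZ, coel-1 (0.55, adjusted p = 0.0399), and 0 under MBZ and TBZ. With the replicate block over all libraries edgeR called coel-1 under ABZ too (0.57, 0.0394). Left-out libraries brought calls too. Without TBZ replicate 2 edgeR called coel-1 under ABZ (0.53, 0.0483) and under TBZ (0.52, 0.0362) and pfd-5 under TBZ (0.19, 0.0414). Without MBZ replicate 1 it called cct-2, cct-8, tbce-1 and pfd-4 lower under MBZ (-0.29 to -0.21), and pfd-4 (-0.20) was also called without ABZ replicate 1.

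Germ line transcripts were read beside the abundant isotypes, which the germ line uses. Under OxBZ, of 17 germ line and oocyte genes 4 rose, a share close to the 21.2% over all genes, and edgeR and DESeq2 called 0 lower. The median log2 fold change was 0.21, with summed levels from 5669 to 6590 CPM in DMSO and from 6438 to 7626 CPM in OxBZ. That count was 0 without DMSO replicate 1 or OxBZ replicate 1, 1 or 2 without ABZ replicate 1, MBZ replicate 1, OxBZ replicate 2 or TBZ replicate 2, 9 without OxBZ replicate 3, and 10 with the replicate number as a block. The germ cell regulator gld-1 was at 861 CPM in DMSO and 987 CPM in OxBZ (0.20 ± 0.098, edgeR adjusted p = 0.119). Under FBZ all 17 fell, where 27.4% of all genes fell, with a median of -0.41, and gld-1 went to 600.1 CPM. The FBZ count was 9 or 10 when DMSO replicate 2 or any FBZ library was left out. The part of germ line content in the tubulin levels was not tested.

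The strongest response of any tubulin gene was that of tbb-6. This divergent beta-tubulin is known in C. elegans as a gene induced when mitochondrial respiration is disturbed, through the kinase PMK-3. In DMSO its libraries measured 2.49, 5.88 and 2.29 CPM. Under OxBZ they measured 115, 101 and 99.2 CPM, and under FBZ 37.4, 47.9 and 32.1 CPM. Under ABZ they measured 9.45, 36.7 and 10.3 CPM, with replicate 2 far above the other ABZ libraries, as DMSO replicate 2 was above the other DMSO libraries. Every library of these 3 drugs lay above every DMSO library.

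The fold change of tbb-6 was 29.5 under OxBZ (95% interval 12.8 to 68.2), 11.03 under FBZ (5.02 to 24.2) and 5.30 under ABZ (2.48 to 11.3), with edgeR adjusted p of 2.2e-05, 0.000252 and 0.0256. Under MBZ the libraries measured 18.7, 15.6 and 10.1 CPM, also all above DMSO, with a log2 fold change of 2.06 ± 0.50 that did not pass (adjusted p = 0.0643). Under TBZ, replicates 2 to 4 measured 4.37, 8.00 and 8.70 CPM and overlapped DMSO (0.99 ± 0.50, adjusted p = 0.272). The OxBZ and FBZ calls held in all 25 alternative fits that kept the same threshold, with log2 fold changes from 4.57 to 5.39 and from 3.22 to 4.05.

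The smaller changes of tbb-6 depended on single libraries. The ABZ call was lost without DMSO replicate 1 (2.18, adjusted p = 0.0968), DMSO replicate 3 (2.17, 0.114) or ABZ replicate 2 (1.48, 0.107), and with only ABZ and DMSO libraries (2.41, 0.554), and held without both libraries numbered 2 (2.01, 0.00917). Without both, MBZ passed (2.59, adjusted p = 0.000905) and so did TBZ (1.56, 0.0148). MBZ also passed without ABZ replicate 1 (1.99, 0.0481), ABZ replicate 2 (2.06, 0.0074) or TBZ replicate 2 (1.99, 0.0496), which share in the estimate of spread.

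Genes of the pathways known to act on tbb-6 were read beside it. Of 9 mitochondrial unfolded protein response genes, 6 rose under OxBZ, where 21.2% of all genes rose, and 2 rose and 2 fell under FBZ, close to the 24.3% and 27.4% over all genes. The mitochondrial chaperone gene hsp-6, the usual marker of that response, was at 589 CPM in DMSO, 624 CPM in OxBZ and 559 CPM in FBZ and passed under neither (edgeR adjusted p = 0.489 and 0.5). The regulator dve-1 rose from 28.2 to 46.4 CPM under OxBZ (0.72 ± 0.12) and to 41.2 CPM under FBZ (0.55 ± 0.12). The OxBZ count was 2 without DMSO replicate 1, and 3 without OxBZ replicate 1, ABZ replicate 1, MBZ replicate 1 or TBZ replicate 2. Of 7 genes of the DLK-1 and PMK-3 kinase pathway, 2 rose under FBZ, and 1 rose and 3 fell under OxBZ. Over all genes 24.3% rose under FBZ, and 21.2% rose and 21.5% fell under OxBZ. The kinase gene sek-3 rose under both (0.37 ± 0.067 and 0.43 ± 0.067), dlk-1 fell under OxBZ (-0.58 ± 0.12), and pmk-3 passed under neither (-0.28 and -0.33). The count of 3 was 1 without DMSO replicate 3 or OxBZ replicate 2. Under ABZ and MBZ edgeR called 1 gene of the mitochondrial list higher, and under TBZ it called 0, with 1 at an unadjusted p under 0.05 and 0 by DESeq2. Fits that lost the ABZ call included RLE scaling and the one without both libraries numbered 2. It was also lost without any 1 library of ABZ or FBZ, DMSO replicate 1 or 3, or OxBZ replicate 1 or 2. Of the kinase list edgeR called 0 under ABZ, MBZ and TBZ, with 1, 3 and 0 at an unadjusted p under 0.05, and DESeq2 called 1, sek-3 under MBZ (0.23, adjusted p = 0.0247).

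The alpha-tubulin tba-7, known from its effect on neurite growth in touch receptor neurons, rose under OxBZ and FBZ and fell under TBZ. Its DMSO libraries measured 14.3, 22.5 and 10.8 CPM. The OxBZ libraries measured 45.6, 44.2 and 36.6 CPM and the FBZ libraries 36.4, 41.4 and 32.3 CPM, all above DMSO. The TBZ libraries measured 8.90, 3.79 and 3.78 CPM, all below DMSO. The ABZ libraries, at 19.02, 46.0 and 25.6 CPM, and the MBZ libraries, at 26.1, 23.7 and 17.7 CPM, overlapped DMSO.

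The fold change of tba-7 was 2.65 under OxBZ (95% interval 1.53 to 4.60, edgeR adjusted p = 0.0087) and 2.31 under FBZ (1.34 to 4.00, 0.0141), and under TBZ it was 2.89-fold lower (log2 fold change -1.53 ± 0.38, adjusted p = 0.0266). Under ABZ (0.93 ± 0.37) and MBZ (0.50 ± 0.37) it did not pass. The FBZ call was lost without DMSO replicate 3 (0.99, adjusted p = 0.0594). The TBZ call was lost without DMSO replicate 2 (-1.19, 0.118), TBZ replicate 3 (-1.32, 0.134) or TBZ replicate 4 (-1.32, 0.135), and also without both libraries numbered 2 (-1.19, 0.0505) and when only TBZ and DMSO libraries were fitted, without and with the replicate block (-1.54, 0.255 and -1.44, 0.474). An annotated gene on the opposite strand, T28D6.3, shares 85 exon bases with tba-7, and the strand setting of the counting is not given in the sources used here. Its mean was 43.7 CPM in DMSO, 7.67 CPM in FBZ (-2.51, adjusted p = 0.028), 11.1 CPM in OxBZ (-1.98, adjusted p = 0.0775) and 6.06 CPM in TBZ (-2.85, adjusted p = 0.0766). In ABZ its mean was 24.4 CPM (-0.84, edgeR adjusted p = 0.865) and in MBZ 23.9 CPM (-0.87, 0.551). The mean of T28D6.3 was thus below that of DMSO under all 5 drugs, and only its change under FBZ passed.

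The alpha-tubulin tba-4 passed against DMSO under no drug. Its DMSO libraries spread from 35.2 to 75.9 CPM, with replicate 2 the highest, and the other groups ran from 27.9 to 57.5 CPM in ABZ, 44.5 to 56.2 CPM in FBZ, 59.5 to 77.4 CPM in OxBZ, 33.6 to 43.4 CPM in MBZ and 24.4 to 39.0 CPM in TBZ. The log2 fold changes were 0.39 ± 0.28 under OxBZ (edgeR adjusted p = 0.279) and -0.79 ± 0.29 under TBZ (0.127). Without both libraries numbered 2, tba-4 rose under OxBZ (0.71, adjusted p = 0.0236).

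The touch receptor tubulins moved in opposite directions under FBZ and OxBZ. The beta-tubulin mec-7 and the alpha-tubulin mec-12 form the large-diameter microtubules of these mechanosensory neurons. For mec-7 the DMSO libraries measured 19.6, 18.1 and 18.2 CPM, the FBZ libraries 52.4, 49.9 and 59.2 CPM and the OxBZ libraries 11.3, 13.3 and 16.97 CPM. For mec-12 they measured 31.5, 30.6 and 26.6 CPM in DMSO, 60.3, 56.1 and 70.1 CPM in FBZ and 17.1, 17.2 and 17.3 CPM in OxBZ. No FBZ or OxBZ library overlapped DMSO for either gene.

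Under FBZ mec-7 was 2.89-fold higher (95% interval 2.32 to 3.60, edgeR adjusted p = 7.81e-06) and mec-12 was 2.10-fold higher (1.81 to 2.44, 6.95e-06). Under OxBZ the log2 fold changes were -0.43 ± 0.15 for mec-7 (adjusted p = 0.0294) and -0.78 ± 0.10 for mec-12 (5.5e-05). The mec-7 call under OxBZ was lost without OxBZ replicate 1 (-0.36, adjusted p = 0.0709) or OxBZ replicate 2 (-0.40, 0.086), and with only OxBZ and DMSO libraries, without and with the replicate block (-0.45, 0.117 and -0.47, 0.168), whereas the FBZ calls of both genes and the OxBZ call of mec-12 held in all 25 alternative fits at the same threshold. Under ABZ, MBZ and TBZ neither gene passed, with log2 fold changes from -0.24 to -0.097. A single exception was mec-12 under TBZ without TBZ replicate 2 (-0.33, adjusted p = 0.045). The gene Y53G8B.1 on the opposite strand shares 76 exon bases with mec-12, and its mean was 7.44 CPM in DMSO, 6.50 CPM in FBZ and 5.22 CPM in OxBZ, where it fell (-0.51, edgeR adjusted p = 0.0303).

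Other genes of the touch receptor neurons were read beside them. All 11 on the list rose under FBZ, where 24.3% of all genes rose, and 5 of 11 fell under OxBZ, where 21.5% of all genes fell. Their summed level ran from 37.1 to 51.4 CPM in DMSO, 109 to 124 CPM in FBZ and 31.6 to 39.5 CPM in OxBZ, and none of the 11 was without reads. The mechanosensory channel gene mec-4 rose under FBZ from 1.13 to 4.22 CPM (1.90 ± 0.20, edgeR adjusted p = 1.23e-05) and was at 0.876 CPM under OxBZ (-0.36 ± 0.19, 0.145). The channel partner mec-2 rose under FBZ (1.83 ± 0.18) and fell under OxBZ (-0.84 ± 0.17). The transcription factor gene mec-3, which specifies these neurons, rose under FBZ (0.84 ± 0.18) and fell under OxBZ (-1.53 ± 0.19, adjusted p = 3.77e-05). The counts were 8 to 11 higher under FBZ and 4 to 6 lower under OxBZ over the alternative fits. For ABZ, MBZ and TBZ edgeR called 0 of the 11, and 1, 4 and 3 had an unadjusted p under 0.05. The list medians there were 0.19, 0.33 and 0.30, whereas the changes of mec-7 and mec-12 lay from -0.24 to -0.097. DESeq2 called 1 list gene higher under MBZ and 1 lower under TBZ.

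Markers of neurons in general differed as well. Of 15 tested pan-neuronal and transmitter genes 13 rose under FBZ, where 24.3% of all genes rose. With OxBZ 10 fell and 2 rose, where 21.5% and 21.2% of all genes did. These FBZ and OxBZ counts were the same in every alternative fit of all groups. EdgeR also called 2 higher under ABZ and 3 under MBZ, where 1.6% and 1.25% of all genes rose, and 0 under TBZ. Those 2 counts were 0 and 1 without both libraries numbered 2. The MBZ count was also 1 with RLE scaling and with no filter on low counts. It was 1 as well without any 1 library of ABZ, FBZ, OxBZ or MBZ, DMSO replicate 2 or 3, or TBZ replicate 3. The ABZ count ran from 0 to 3 over the alternative fits of all groups. DESeq2 called 2, 6 and 1 higher under ABZ, MBZ and TBZ. The synaptic vesicle gene rab-3 was at 11.2 CPM in DMSO, 40.8 CPM in FBZ (1.86 ± 0.12, edgeR adjusted p = 3.04e-07) and 7.47 CPM in OxBZ (-0.59 ± 0.12, 0.0017). The summed level of the list ran from 691 to 806 CPM in DMSO, 1118 to 1171 CPM in FBZ and 632 to 663 CPM in OxBZ. The vesicular acetylcholine transporter gene unc-17 had no read in any library. The part of neuronal content in the changes of mec-7 and mec-12 was not tested.

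Enzymes and binding proteins of microtubules were called in both directions, beside shares over all genes of 24.3% higher and 27.4% lower under FBZ and 21.2% and 21.5% under OxBZ. Of 10 tested tubulin modification genes 4 rose and 1 fell under FBZ, and 3 rose and 3 fell under OxBZ. The alpha-tubulin acetyltransferase mec-17, which acts in touch receptor neurons, went from 16.8 to 38.7 CPM under FBZ (1.204 ± 0.11, edgeR adjusted p = 6.21e-06) and to 12.3 CPM under OxBZ (-0.45 ± 0.11, 0.00638). Its relative atat-2 rose under FBZ (1.64 ± 0.21) and did not pass under OxBZ (0.22 ± 0.21). The 3 that rose under OxBZ were ttll-4 (0.26 ± 0.057) and ttll-12 (0.28 ± 0.064), of the tubulin tyrosine ligase-like family, and the deglutamylase ccpp-1 (0.17 ± 0.057), and they numbered 0 without OxBZ replicate 1 and 1 without DMSO replicate 1. Of 25 microtubule-associated genes 5 rose and 6 fell under FBZ, and 11 rose and 3 fell under OxBZ. The FBZ counts were close to the shares over all genes. The OxBZ count of 11 was 6 or 7 without any 1 of OxBZ replicates 1 and 2, DMSO replicates 1 and 3, ABZ replicate 1, MBZ replicate 1 and TBZ replicate 2. The FBZ count of 5 was 3 without FBZ replicate 2. Under ABZ, MBZ and TBZ edgeR called 0 of the 25, with 1, 6 and 5 at an unadjusted p under 0.05. DESeq2 called 1 higher and 4 lower under MBZ and 4 lower under TBZ. Without MBZ replicate 1 edgeR called 7 lower under MBZ and 4 lower under TBZ. Of the modification genes edgeR called 0 under these 3 drugs, and DESeq2 called 1 higher under each of MBZ and TBZ. The tau-like gene ptl-1 rose under FBZ from 10.3 to 37.8 CPM (1.88 ± 0.17) and fell under OxBZ to 6.93 CPM (-0.57 ± 0.17).

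The cilium-associated beta-tubulin tbb-4 was the least certain of the genes. Its DMSO libraries measured 13.4, 1.83 and 8.69 CPM, and its ABZ libraries 11.9, 3.09 and 14.4 CPM, so that the libraries numbered 2 were lowest in both groups. The FBZ libraries measured 24.3, 24.0 and 27.8 CPM, all above DMSO. The OxBZ libraries at 5.65, 6.72 and 15.5 CPM, the MBZ libraries at 11.8, 17.4 and 16.6 CPM and the TBZ libraries at 14.4, 11.4 and 10.95 CPM all overlapped DMSO. Under FBZ the fold change was 3.18 (95% interval 1.28 to 7.86, edgeR adjusted p = 0.0338). The call was lost without DMSO replicate 2 (log2 fold change 1.22, adjusted p = 0.0784), DMSO replicate 3 (1.73, 0.0675), or FBZ replicate 1 (1.70, 0.06), 2 (1.71, 0.058) or 3 (1.59, 0.0753). It was lost as well with only FBZ and DMSO libraries, without and with the replicate block (1.69, 0.0763 and 2.05, 0.0738), and it held without both libraries numbered 2 (1.22, 0.0183).

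Cilia genes moved with tbb-4. Of 27 intraflagellar transport and cilia genes 26 rose under FBZ, where 24.3% of all genes rose, with a median log2 fold change of 1.59, and 25 rose without both libraries numbered 2. Their summed level was 169, 93.0 and 120 CPM in the DMSO libraries, 253 to 256 CPM in FBZ and 96.4 to 155 CPM in OxBZ. The lowest DMSO library was again replicate 2. The intraflagellar transport gene che-2 rose under FBZ from 1.41 to 5.81 CPM (2.04 ± 0.54, edgeR adjusted p = 0.00663), and the cilia transcription factor gene daf-19 from 29.0 to 44.9 CPM (0.63 ± 0.18, 0.0112). Under ABZ, MBZ and TBZ edgeR called 0 cilia genes, with 2, 16 and 8 at an unadjusted p under 0.05, and DESeq2 called 1, 4 and 3 higher. The 1 under ABZ was osm-1, the 4 under MBZ were osm-1, dyf-2, ift-74 and ift-81, and the 3 under TBZ were ift-20, ift-74 and ift-81. Left-out libraries brought edgeR calls too. Without DMSO replicate 1 it called 5 higher under MBZ and ift-81 under TBZ (1.28, adjusted p = 0.0366). Without ABZ replicate 2 it called ift-20 under TBZ (1.15, 0.0336). The medians under ABZ, MBZ and TBZ were 0.40, 0.83 and 0.74, and 0.27, 0.50 and 0.44 without both libraries numbered 2. Under OxBZ the median was -0.049, and -0.42 without them.

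**Figure D3:**
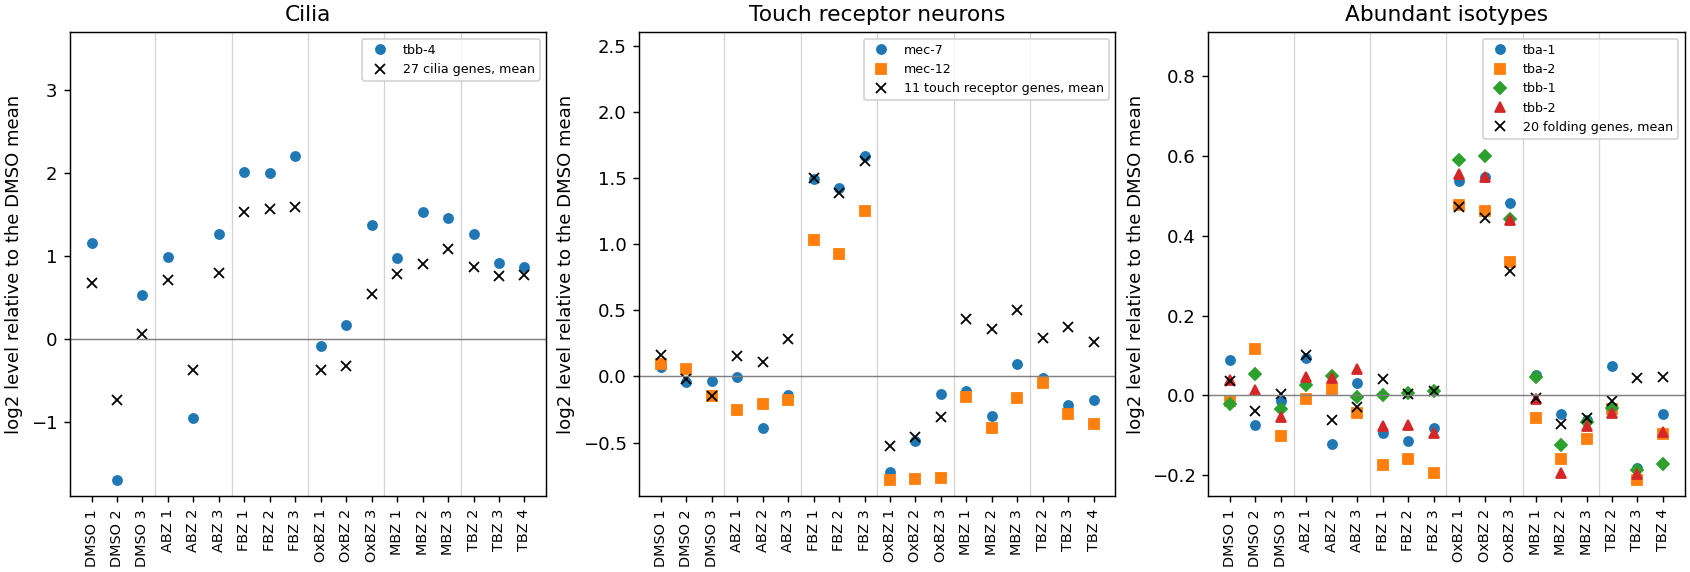
Levels in each library relative to the DMSO mean on the log2 scale, for tbb-4 with the mean of 27 cilia genes, for mec-7 and mec-12 with the mean of 11 touch receptor genes, and for the 4 abundant isotypes with the mean of 20 folding genes. DMSO replicate 2 and ABZ replicate 2 are low for tbb-4 and the cilia genes (-0.73 and -0.37 for the list), and the 3 OxBZ libraries are high for the abundant isotypes and folding genes (0.31 to 0.47 for the list).

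Other tissue markers also differed. Of 52 tested sperm genes 51 fell under FBZ, with a median log2 fold change of -5.04, and 16 fell under OxBZ, a count that was 0 or 1 without DMSO replicate 2 or any OxBZ library and 29 to 47 without DMSO replicate 1 or 3 or ABZ replicate 1 or 2. The major sperm protein gene msp-64 went from 34.3 CPM in DMSO to 0.735 CPM in FBZ. Of 9 intestinal genes 5 fell under FBZ, 6 fell and 1 rose under OxBZ, and 5 fell under TBZ, or 1 to 3 without DMSO replicate 2, TBZ replicate 3 or TBZ replicate 4. The intestinal actin gene act-5 went from 932 to 390.0 CPM under OxBZ (-1.26 ± 0.26, edgeR adjusted p = 0.00205). The summed intestinal level was 5585 to 7259 CPM in DMSO and 2693 to 2926 CPM in OxBZ. Of 10 muscle genes 1 rose and 2 fell under FBZ, with a median of -0.24, and 3 rose and 1 fell without both libraries numbered 2, with a median of 0.078. Under OxBZ 4 muscle genes fell, or 2 without OxBZ replicate 3. Of 9 hypodermal genes 2 rose and 5 fell under FBZ and 1 fell under each of OxBZ and TBZ. Over all genes 24.3% rose and 27.4% fell under FBZ, 21.2% rose and 21.5% fell under OxBZ, and 3.06% rose and 3.17% fell under TBZ. The part of these tissues in the tubulin results was not tested.

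Among the other tubulin genes, under FBZ the alpha-tubulins tba-5, of sensory cilia, and tba-6, of male-specific and other ciliated neurons, rose, and tbg-1 fell. For tba-5 the DMSO libraries measured 2.23, 0.628 and 1.26 CPM and the FBZ libraries 9.71, 8.25 and 10.7 CPM (2.80 ± 0.42, edgeR adjusted p = 0.000203). For tba-6 they measured 1.31, 0.610 and 0.584 CPM in DMSO and 4.15, 3.00 and 3.97 CPM in FBZ (2.15 ± 0.49, 0.00275). Both share exon bases with opposite-strand genes, tba-5 with rsd-6 (26 bases) and tba-6 with F32H2.6 (75 bases). The gamma-tubulin tbg-1, of centrosomes, fell by 0.18 under FBZ and rose by 0.28 ± 0.051 under OxBZ (adjusted p = 0.000816). With edgeR no further gene of these 6 passed in the main fit. DESeq2 called tba-5 higher under MBZ (1.32, adjusted p = 0.0158) and TBZ (1.06, 0.0458), and tba-9, another alpha-tubulin of ciliated neurons, higher under FBZ (0.58, 0.045) and lower under OxBZ (-0.63, 0.0364). Without DMSO replicate 1 edgeR also called tba-5 under MBZ (1.80, 0.0206) and TBZ (1.57, 0.0295). It called tba-9 under FBZ without ABZ replicate 3 (0.58, 0.0448) and with only FBZ and DMSO libraries (0.59, 0.0382). Under OxBZ it called tba-9 without ABZ replicate 1 or 3 or TBZ replicate 2 or 4 (adjusted p = 0.029 to 0.0465). The replicate block over all libraries gave that OxBZ call too (-0.64, 0.0492). Without DMSO replicate 2 it called ben-1 under FBZ (0.33, 0.0255), as it did without both libraries numbered 2 (0.33, 0.0049). For ben-1 the log2 fold changes ran from -0.15 to 0.20, and the test over all 6 groups passed (adjusted p = 0.0415), with FBZ highest at 66.4 ± 0.63 CPM and MBZ lowest at 52.0 ± 2.80 CPM. The alpha-tubulin tba-8 was under 0.29 CPM in every library.

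The make-up of the tubulin transcripts was read per kilobase as a share of the 5 alpha or the 5 beta genes. In DMSO tba-2 and tba-1 made up 56.0% ± 1.75 and 38.5% ± 3.13 (SD, n = 3) of the alpha pool, and tbb-2 and tbb-1 made up 66.4% ± 0.65 and 32.1% ± 0.86 of the beta pool. The share of tbb-6 in the beta pool rose from 0.178% ± 0.098 in DMSO to 3.56% ± 0.22 in OxBZ, 1.95% ± 0.39 in FBZ and 0.910% ± 0.74 in ABZ. Under OxBZ tbb-6 stood at rank 5 of the 10 genes at 70.8 ± 5.72 CPM per kb, above every library of tba-4, whereas in DMSO it was last. Under TBZ the last place was that of tba-7, at 3.84 ± 2.06 CPM per kb, overlapping tbb-6. Under FBZ mec-7 made up 2.55% ± 0.24 of the beta pool and mec-12 3.50% ± 0.42 of the alpha pool, against 0.887% ± 0.036 and 1.56% ± 0.076 in DMSO.

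Within the abundant pairs the proportions changed less. The log2 ratio of tbb-1 to tbb-2 was -1.05 ± 0.053 in DMSO, -1.02 ± 0.026 in OxBZ and -0.96 ± 0.015 in FBZ. That of tba-1 to tba-2 was -0.54 ± 0.16 in DMSO and between -0.53 and -0.45 under the drugs. The ratio of the summed alpha to the summed beta genes was 0.876 ± 0.024 in DMSO, 0.841 ± 0.011 in ABZ, 0.816 ± 0.00089 in FBZ, 0.814 ± 0.0031 in OxBZ, 0.869 ± 0.028 in MBZ and 0.872 ± 0.021 in TBZ. The 3 FBZ and the 3 OxBZ libraries, none above 0.817, lay below the lowest DMSO library, at 0.853. All 10 genes together took 0.370% ± 0.0031 of raw counts in DMSO, 0.515% ± 0.0043 in OxBZ and between 0.378% and 0.407% in the other groups. These shares of raw counts carry no TMM scaling. With it, the summed level ran from 3725 to 4018 CPM in DMSO and from 5282 to 5734 CPM in OxBZ. Over the libraries of the other groups it ran from 3379 to 3976 CPM, overlapping DMSO. These shares and sums are descriptions and carry no test.

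**Figure D4:**
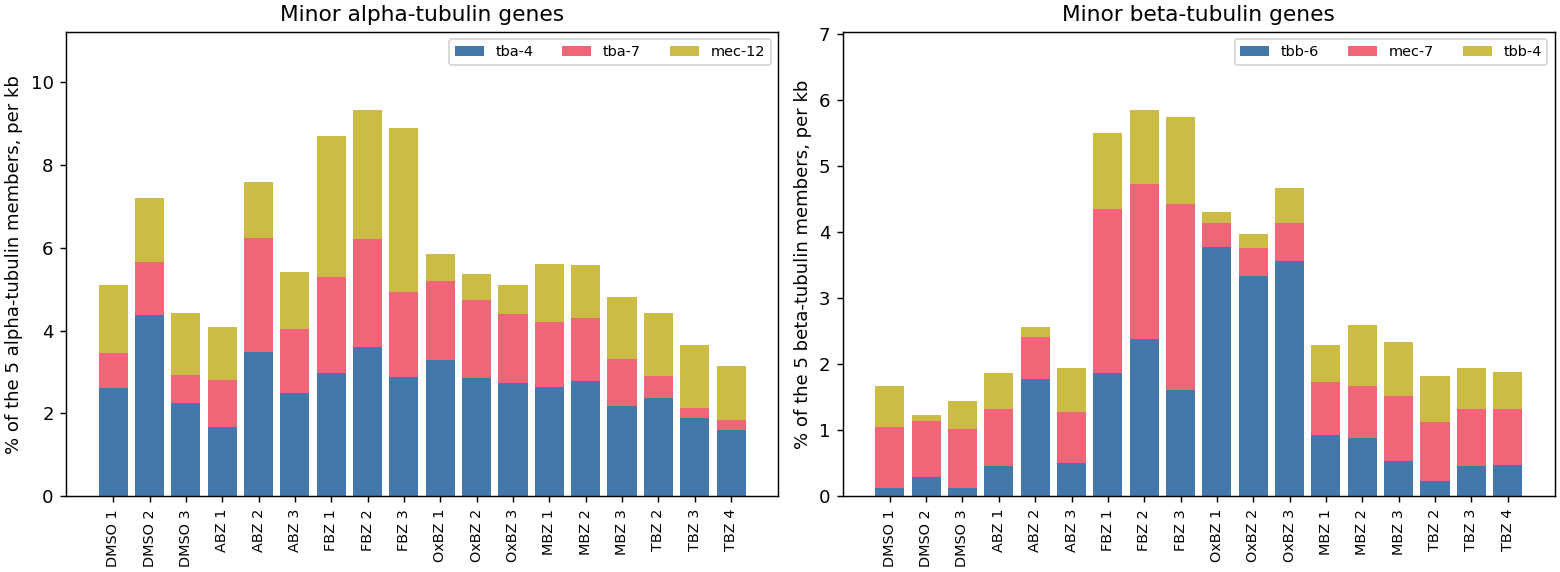
Share of each minor gene in the summed level per kilobase of the 5 alpha-tubulin genes (left) and the 5 beta-tubulin genes (right) in each library, as stacked bars from 0. The abundant genes make up the rest to 100%. The OxBZ bars on the right are mostly tbb-6 (3.34% to 3.78%), and the FBZ bars hold more mec-7 and mec-12 than those of any other group.

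The drugs were compared with each other directly in 10 pairs, which gave 100 tests on these genes, of which 39 were called over all genes and 38 also with p adjusted over the 10 pairs of each gene. With DMSO replicate 2 and ABZ replicate 2 left out, 49 were called over all genes. The counts of each pair below are from the fit of all 18 libraries. The sulfide FBZ and its sulfoxide OxBZ differed in 7 of 10 genes, where 60% of all genes differed. The abundant isotypes were lower under FBZ by 0.54 to 0.62 on the log2 scale (SE 0.058 to 0.071, edgeR adjusted p = 1.96e-06 to 5.96e-06). For mec-7 and mec-12 the levels were higher under FBZ, by 1.96 ± 0.15 and 1.85 ± 0.10 (adjusted p = 3.64e-07 and 4.53e-08). For tbb-6 the difference was -1.42 ± 0.48 (adjusted p = 0.0206, and 0.0169 over the 10 pairs). That call was lost without FBZ replicate 1 (-1.39, 0.0583), FBZ replicate 3 (-1.297, 0.0712) or OxBZ replicate 1 (-1.29, 0.076). The difference did not pass for tba-7 (-0.20, 95% interval -0.98 to 0.58), tba-4 (-0.47, -1.08 to 0.14) or tbb-4 (1.45, 0.15 to 2.75, adjusted p = 0.052).

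OxBZ differed from each other drug as well. Against TBZ, which has no carbamate, 8 of 10 genes differed, where 42% of all genes did. Against MBZ 7 of 10 differed, where 42.4% did, and against ABZ 6 of 10, where 43.5% did. In each of these pairs the 4 abundant isotypes and tbb-6 were higher and mec-12 was lower under OxBZ. The difference of tbb-6 was 3.90 ± 0.54 over TBZ, 2.82 ± 0.51 over MBZ and 2.48 ± 0.50 over ABZ. The gene tba-4 was 1.18 ± 0.29 higher under OxBZ than under TBZ (edgeR adjusted p = 0.00486). Its difference from MBZ was 0.76 ± 0.29, with an adjusted p of 0.0437 over all genes and 0.0745 over the 10 pairs. That call was lost when any 1 of 12 of the 18 libraries was left out (adjusted p = 0.0518 to 0.16), the highest p being that without OxBZ replicate 1.

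FBZ differed from TBZ in 4 of 10 genes, where 35.7% of all genes differed, from MBZ in 3, where 26.9% did, and from ABZ in 2, where 42.7% did. Against each of the 3, mec-7 and mec-12 were higher under FBZ, by 1.63 to 1.70 and by 1.29 to 1.31. For tbb-6 FBZ was higher than TBZ by 2.48 ± 0.50 (edgeR adjusted p = 0.00271) and than MBZ by 1.403 ± 0.49 (0.0457). The latter call was lost when any 1 library of FBZ, OxBZ or MBZ, or TBZ replicate 3 or 4, was left out (adjusted p = 0.0542 to 0.131). The tbb-6 difference between ABZ and FBZ was -1.06, with a 95% interval from -2.09 to -0.026 (adjusted p = 0.0889).

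The remaining pairs differed in 1 gene or none. TBZ was lower than ABZ in tba-7 by 2.46 ± 0.39 on the log2 scale, the only one of 10 genes called, where 6.33% of all genes were, and lower than MBZ by 2.03 ± 0.38, again the only one, where 3.45% were. The second call was lost without TBZ replicate 4 (1.82, edgeR adjusted p = 0.0522). ABZ and MBZ, both carbamates, differed in 0 of 10 genes, where 0.206% of all genes differed, by edgeR, with 1 gene at an unadjusted p under 0.05. Their difference was 0.35 for tbb-6 with a 95% interval from -0.68 to 1.37, and 0.43 for tba-7, from -0.36 to 1.21, so that differences above 2-fold were not excluded for either. For mec-12 the interval was -0.20 to 0.23.

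**Figure D5:**
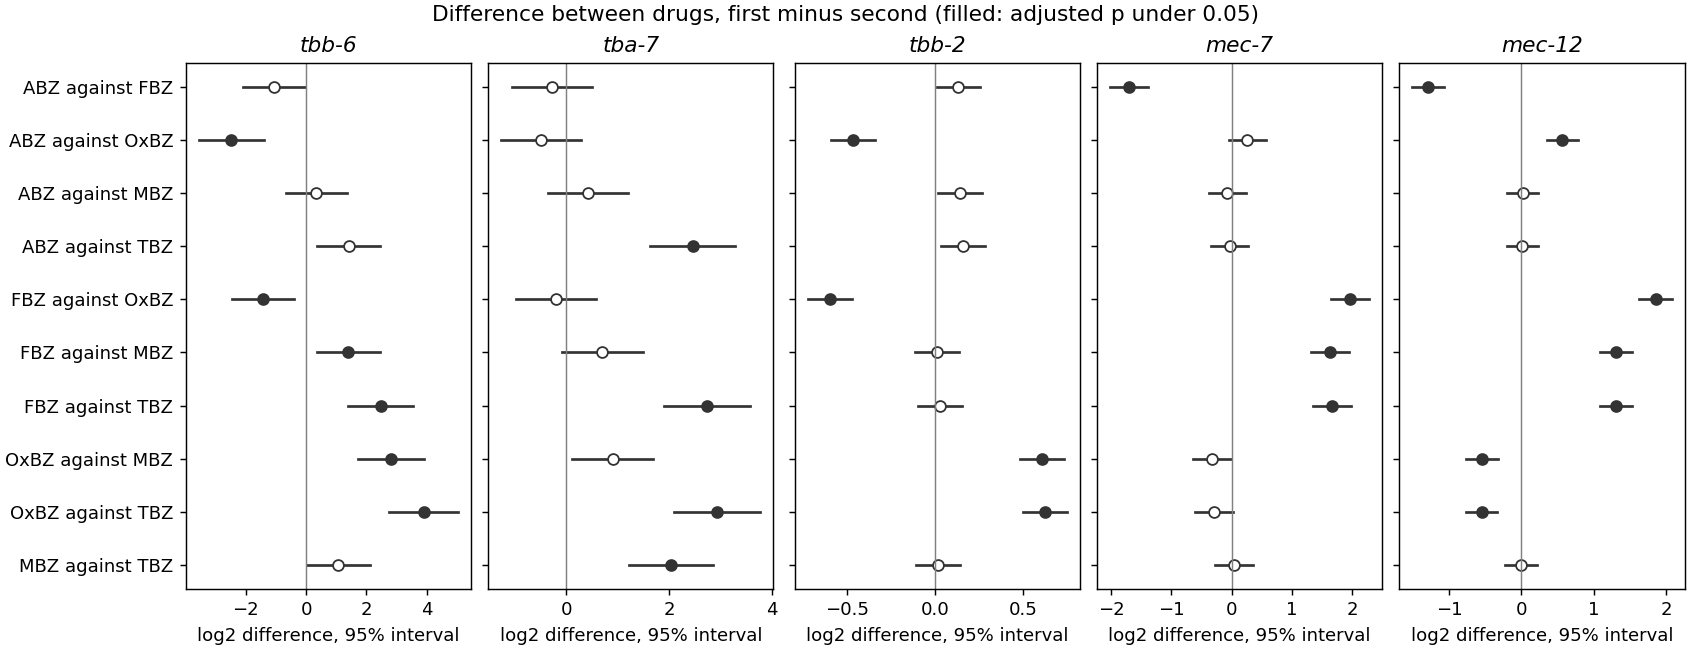
Log2 difference between drugs, first minus second, for 5 tubulin genes and 10 pairs, with 95% intervals from an approximate standard error. Filled points had an adjusted p under 0.05 over all genes. The pairs with OxBZ stand away from 0 for tbb-6 and tbb-2 (tbb-2 by 0.46 to 0.62 in size), those with FBZ for mec-7 and mec-12, and those with TBZ for tba-7.

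Across the 18 libraries some of the members varied together. These Pearson correlations of log2 levels are descriptions over libraries that share groups and depth. They were 0.93 to 0.97 among the 4 abundant isotypes, 0.95 between mec-7 and mec-12, 0.79 between tba-4 and tba-7 and 0.71 between tba-7 and tbb-6. Between the abundant isotypes and tba-4, tba-7 or tbb-6 they ran from 0.39 to 0.72, so these genes did not form separate sets. The highest of these were those of tbb-1 with tba-4 and with tbb-6, both 0.72. Between tbb-4 and mec-7 the value was 0.61, and between mec-12 and tba-2 it was -0.64. Among all tested genes outside the 10, those most like tbb-6 were cest-32 (0.98), ugt-19 (0.97) and F14F9.3 (0.97). The nearest to tbb-4 were unc-86 (0.99), rig-5 (0.99) and W03G11.4 (0.99), and the nearest to tba-7 were fbxa-98 (0.96), cdr-2 (0.95) and C08E8.4 (0.95). For the abundant genes they were mat-3 (0.97) for tba-1, act-2 (0.98) for tba-2, gars-1 (0.97) for tbb-1 and dli-1 (0.97) for tbb-2. For mec-7 and mec-12 they were R05A10.1 (0.98) and col-166 (0.97), and for tba-4 the nearest, Y19D2B.1, reached 0.92.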

How the data were processed

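The authors deposited raw counts of reads for every gene. Subread 1.4.6 and featureCounts are listed in the submitters' processing notes. Genome build, annotation and whether counting used strand: not given in the sources used here, so coordinates are omitted. Reads that fit closely related isotypes may be shared or lost in counting, which was not analysed here. Gene symbols, exon lengths and overlaps came from Ensembl annotation. Of 20395 identifiers 767 had no symbol and held 0.92% of counts.

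Genes were kept by filterByExpr (minimum count 10), which removed 2911 and left 17484. In R 4.3.3, edgeR 4.0.16 fitted a robust quasi-likelihood model with TMM factors to all 18 libraries, with 1 mean for each group (residual degrees of freedom: 12). Benjamini-Hochberg adjustment covered every tested gene. The approximate standard error is the size of the log2 fold change divided by the root of its F statistic, and 95% intervals rest on it. One read in the smallest library is 0.018 CPM. The edgeR and DESeq2 fits were also run on simulated libraries in which a known set of genes differed. These were built from levels and spread of the main fit and covered FBZ against DMSO only, and their outcome is not given here.

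The members, the 13 other gene lists and the tests were chosen with earlier results of these data known. Named genes were the 16 tubulin genes, up to 3 called genes of each list with the largest change, and the genes most correlated with each member. Further list genes (tbcc-1, tbcd-1, tbce-1, pfd-4, mec-3, daf-19, hsp-6, sek-3, pmk-3, ttll-4, ttll-12, ccpp-1, osm-1, dyf-2, ift-74, ift-81, pfd-5, cct-2 and cct-8) were chosen after their values were seen, as were the opposite-strand neighbours, named for their overlap. Alternatives were RLE scaling, no filter, DESeq2 1.42.0, each library left out, both libraries numbered 2 of DMSO and ABZ left out, a replicate block, fits of 1 drug with DMSO, and a size threshold. ABZ and DMSO libraries of the same number deviated together (correlations 0.57 to 0.84). The deviations were from means of 3 libraries, so the libraries numbered 2, which stood apart in both groups, bear on every one of these correlations. They cannot settle whether the samples were paired. The main fit has no pairing, and the replicate block was run as an alternative. The label of OxBZ replicate 2 reads OxB and was taken with its title as OxBZ.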

Additional observations from a re-analysis of the deposited data

How the results depend on the processing

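Fits with a single library left out aside, the number of tubulin genes called moved by more than 1.5 times, or to or from 0, in 7 cases. With only ABZ and DMSO libraries fitted the ABZ count was 0 in place of 1 (tbb-6, adjusted p = 0.554). With a log2 change of at least 1 also required, the OxBZ count was 2 in place of 8 and the count over drug pairs 19 in place of 39. The MBZ count was 1 in place of 0 with DESeq2 and with both libraries numbered 2 left out, in each case tbb-6. The TBZ count was 0 in place of 1 with only TBZ and DMSO libraries, with and without the replicate block. With both libraries numbered 2 left out it was 1, but the gene was tbb-6, higher, and tba-7 was not called (-1.19, adjusted p = 0.0505). Leaving out each library in turn gave counts of 0 to 1 for ABZ, 4 to 6 for FBZ, 7 to 8 for OxBZ, 0 to 1 for MBZ, 0 to 2 for TBZ, 36 to 44 over drug pairs and 8 to 9 for any difference. The causes were not tested. Of 1310 alternative values of single genes against DMSO, 38 lost and 8 gained a call, and of 2400 between drugs 48 lost and 47 gained one. No called value changed sign, and 32 and 73 uncalled values did.

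Under the replicate block with ABZ and DMSO libraries the ABZ count stayed at 1, with tbb-6 at 2.25 (adjusted p = 0.00112), and with only libraries 1 and 3, added after the data were seen, tbb-6 was at 2.03 (0.00172). For the other drugs the correlations between libraries of the same number ran from -0.50 to 0.49. There the block with 1 drug and DMSO gave 4 calls for FBZ, 6 for OxBZ, 0 for MBZ and 0 for TBZ. Over all genes, the ABZ calls, 279 higher and 106 lower, became 471 and 269 with DESeq2, 140 and 73 without both libraries numbered 2, and 26 and 1 with only ABZ and DMSO libraries. The MBZ calls, 218 and 41, became 481 and 461 with DESeq2 and 40 and 1 with only MBZ and DMSO libraries. The TBZ calls, 535 and 554, became 955 and 1126 with DESeq2, 255 and 233 with the block over all libraries, and 11 and 1 with only TBZ and DMSO libraries. The OxBZ calls, 3715 and 3751, became 2542 and 1911 with only OxBZ and DMSO libraries and 2353 and 3491 without both libraries numbered 2. With 1 drug, DMSO and the block they were 2808 and 2705 for FBZ, 1075 and 947 for OxBZ, 16 and 0 for MBZ, 0 and 0 for TBZ and 317 and 239 for ABZ. List counts were also recomputed, as an addition after the data were seen.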
